A study of Mus musculus with 19 samples.

Results

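The keratins of resting epidermis and of the upper hair follicle were examined in mouse skin, as the 8 genes Krt5, Krt14 and Krt15 (basal layer), Krt1, Krt10, Krt2 and Krt77 (suprabasal layers) and Krt79 (follicle). They were taken by gene symbol from the 50686 genes of the deposited table, and all 8 were found and passed the filter on low levels. Skin came from 19 mice on day 42 after BMT (bone marrow transplantation). All recipients were irradiated female BALB/c mice of 8 to 12 weeks, and all received T cell-depleted bone marrow with splenocytes. Male B10.D2 donors were used to induce chronic GVHD (graft-versus-host disease) of the sclerodermatous type, named Scl-cGVHD, and male BALB/c donors gave the syngeneic control. From day 7 to day 35, 2 doses a week were injected of an anti-CX3CL1 mAb (clone 5H8-4, which blocks the chemokine CX3CL1) or of control IgG (an anti-DNP mAb). The groups were syngeneic IgG (n = 3), syngeneic mAb (n = 5, dose not given on the labels), Scl-cGVHD IgG (n = 3), Scl-cGVHD mAb at 0.5 mg per mouse (n = 3) and Scl-cGVHD mAb at 1 mg per mouse (n = 5). Whole skin was sequenced, so fewer cells of a type and less RNA per cell cannot be told apart.

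Keratins form the intermediate filaments of epithelial cells, and each filament pairs a type I with a type II chain. Basal keratinocytes make the pair Krt5 (type II) and Krt14 (type I), and replace it by Krt1 (type II) and Krt10 (type I) when they leave the basal layer. Krt15 is a type I keratin of basal cells and is abundant in the bulge, the stem cell region of the hair follicle. Krt2 is a type II keratin of the upper suprabasal layers, which in the mouse is known mainly from ear, tail and sole. Krt77 is a type II keratin of mouse suprabasal epidermis, and Krt79 is a type II keratin of the infundibulum, the uppermost part of the mouse follicle. Wounded or inflamed epidermis adds the keratins Krt6a, Krt6b, Krt16 and Krt17.

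The members lie in both keratin clusters of the mouse genome, with coordinates of GRCm38 as deposited, and all are read from the minus strand. The type I genes were Krt10 (ENSMUSG00000019761, chromosome 11, 99385254 to 99389364), Krt15 (ENSMUSG00000054146, chromosome 11, 100131758 to 100135928) and Krt14 (ENSMUSG00000045545, chromosome 11, 100203162 to 100207548). The type II genes were Krt5 (ENSMUSG00000061527, chromosome 15, 101707070 to 101712891), Krt2 (ENSMUSG00000064201, chromosome 15, 101810689 to 101818169), Krt1 (ENSMUSG00000046834, chromosome 15, 101845428 to 101850786), Krt77 (ENSMUSG00000067594, chromosome 15, 101858732 to 101869705) and Krt79 (ENSMUSG00000061397, chromosome 15, 101929332 to 101940324). Of 2 pairs of neighbours chosen after their values were seen, Krt1 and Krt77 lie 7.9 kb apart, and their log2 fold changes in Scl-cGVHD IgG against syngeneic IgG skin, neither called, were 0.31 and -5.70. Krt5 lies 12.8 kb from Krt6a, whose fold change was 4.52 (called) beside 0.12 for Krt5 (not called).

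Promoters are shown to set members of the 3 places side by side: the suprabasal Krt10, Krt2 and Krt77, the basal Krt5 and the follicle member Krt79. Of the 8 members, 6 matched the RefSeq promoter table by symbol (Krt1 and Krt15 did not). The RefSeq start of Krt14 (position 100206030) lies inside the gene as deposited, so its window is not shown. Each run gives the 120 bases before the RefSeq start site on GRCm38.p6, minus strand, written 5′ to 3′. Capitals mark the motif TATANA (N is any base), searched on the coding strand within the last 50 bases, with overlapping matches joined. The motif was chosen after the sequences were seen.
Krt10: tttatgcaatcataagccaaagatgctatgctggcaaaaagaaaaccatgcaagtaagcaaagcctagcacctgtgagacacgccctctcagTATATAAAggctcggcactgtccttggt
Krt2: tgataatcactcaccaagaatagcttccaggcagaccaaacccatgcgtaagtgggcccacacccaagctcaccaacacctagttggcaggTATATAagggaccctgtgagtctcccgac
Krt77: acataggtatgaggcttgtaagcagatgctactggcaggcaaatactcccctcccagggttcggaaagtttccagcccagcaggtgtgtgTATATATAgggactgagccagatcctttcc
Krt5: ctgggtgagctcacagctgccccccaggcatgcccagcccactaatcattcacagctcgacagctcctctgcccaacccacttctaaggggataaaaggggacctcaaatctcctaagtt
Krt79: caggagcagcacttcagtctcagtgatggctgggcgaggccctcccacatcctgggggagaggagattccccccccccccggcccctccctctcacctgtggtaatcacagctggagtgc
In the order shown, the runs are chr11:99389365-99389484, chr15:101818170-101818289, chr15:101869706-101869825, chr15:101712906-101713025 and chr15:101940325-101940444. TATANA stood from base -28 to -21 of Krt10, from -29 to -24 of Krt2 and from -30 to -23 of Krt77, counted from the start site. It was in none of the other windows shown. The Krt5 run does hold ATAAAA at a like distance from its start site, which the motif chosen does not match. The motif thus does not set the suprabasal members apart from Krt5 by an AT-rich stretch at this place. Over 32851 RefSeq promoters, 4.4% held TATANA in the last 50 bases. The AP-1 motif TGANTCA was searched on both strands of the 250 bases before the start. It was in none of the 6 windows, with that of Krt14 counted, and in 6.75% of all promoters, so its absence says little. These are matches of letters and were not tested as sites.

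Levels are the authors' TPM, a measure of transcripts that accounts for gene length and adds up to 1 common total in every mouse. Library depth was not used here, since the names in the alignment summary could not be matched to single mice, and no counting interval is given. As a check of the tissue, 12 general keratinocyte genes such as Perp and Dsp summed to 3196 to 7536 TPM per mouse, and none was at 0 throughout a group. Skeletal muscle genes were also present in each mouse (15 genes, 7348 to 38376 TPM summed). Some mice stood apart. Mouse ID_1537 (Scl-cGVHD IgG) had the lowest level of 7 of the 8 members among all mice but shared the high Krt14 of its group. Its 10 leukocyte genes summed to 1481 TPM, against 89.9 to 367.9 TPM in all other mice. Mice ID_1533 and ID_1534 (syngeneic mAb) held 20 keratins of the hair shaft and root sheath at 21479 and 13714 TPM summed, against 1.97 to 2671 TPM in all others. Member fold changes that turned on these mice are given with and without them. Correlations, nearest genes and marker lists are not given without them. The fits used log2(TPM + 1) in limma with all 5 groups together, over the 16350 genes that reached 1 TPM in 3 or more mice, and a gene was called at an adjusted p (Benjamini-Hochberg over all genes of a comparison) under 0.05. Fold changes on this scale understate those of low genes, and errors are SD over mice for TPM and standard errors (SE) for fold changes.

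In syngeneic IgG skin the members ran from Krt10 down to Krt2, and replicates lay close together. The order of levels was Krt10 (3888 ± 295 TPM), Krt5 (2644 ± 167), Krt15 (2501 ± 184), Krt77 (1930.3 ± 208), Krt14 (1844 ± 206), Krt1 (985 ± 61.8), Krt79 (755 ± 93.8) and Krt2 (2.46 ± 0.997; SD, n = 3 each). The ranges of Krt5 and Krt15 overlapped, as did those of Krt77 and Krt14, and the other neighbours in this order did not. Krt10 ranked 24 among all genes by mean level, and Krt2 ranked 13106. Together the 8 keratins made up 1.38% to 1.53% of all transcripts. In Scl-cGVHD IgG skin the order of means changed to Krt14, Krt10, Krt5, Krt1, Krt77, Krt79, Krt15 and Krt2. Krt14 moved from rank 73 to rank 10, and Krt15 from rank 43 to rank 2607. The spread between mice was also wider. The highest mouse was 44 times the lowest for Krt1 and 33.8 times for Krt10, against 1.13 and 1.15 times in syngeneic IgG mice. Mouse ID_1537 was the lowest for both, and the other mice of this group stood at 6312 and 2008 TPM for Krt1. For Krt10 they stood at 9896 and 3065 TPM. Krt14 spread less, at 1.51 times against 1.24 times.

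**Figure D1:**
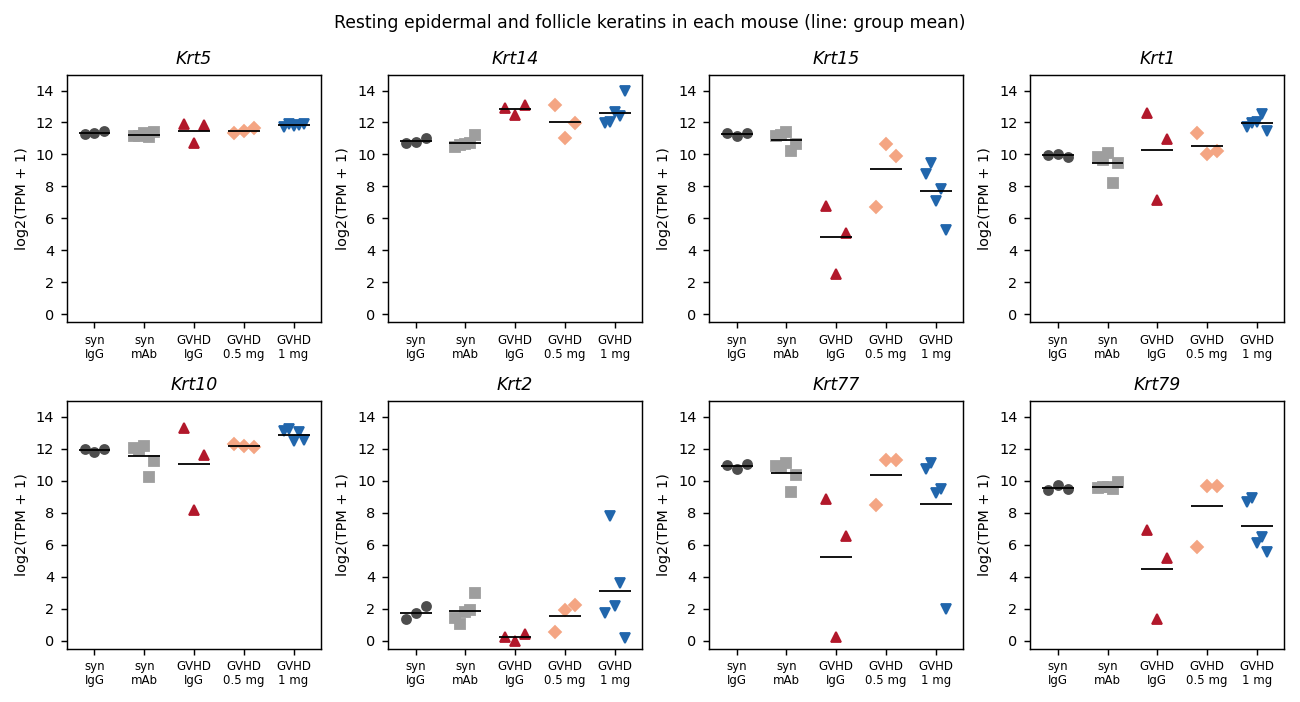
Level of each keratin in each of the 19 mice, as log2(TPM + 1) on the vertical axis, with 1 panel per gene and 1 column of points per group. Points are mice and lines are group means. Krt14 of the 3 Scl-cGVHD IgG mice lies above the syngeneic IgG mice, Krt15 and Krt79 lie below them, and Krt1 and Krt10 straddle them.

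The first comparison asked how the resting keratins stood in Scl-cGVHD skin without the mAb, as Scl-cGVHD IgG against syngeneic IgG. Krt14 rose, Krt15 and Krt79 fell (by mean TPM 3.99-fold higher, 50.9-fold lower and 14.4-fold lower), while Krt5, Krt1 and Krt10 were not called. limma thus called 1 member higher and 2 lower, against a background of 6.84% of all genes called higher and 17.9% called lower. The median gene had a log2 fold change of -0.33, which lay between -0.06 and -0.01 under the 3 other scalings tried. The members' share of calls, 3 of 8, stood beside 24.7% over all genes, so the count itself does not set the members apart.

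The basal keratins moved apart. Krt14 stood at 1669.8, 1792 and 2072 TPM in the syngeneic IgG mice and at 7604, 5764 and 8685 TPM in the Scl-cGVHD IgG mice. Each Scl-cGVHD IgG mouse lay above each syngeneic IgG mouse, as for 10.4% of all genes, and the log2 fold change was 1.98 (SE 0.46, limma adjusted p = 0.00764). Krt5, the filament partner of Krt14, stood at 2493, 2616 and 2823 TPM and at 3870.1, 1658 and 3703 TPM. The low value is that of mouse ID_1537, and the groups overlapped, with a log2 fold change of 0.12 (95% interval -0.35 to 0.60, adjusted p = 0.697). Without mouse ID_1537 the Krt5 fold change was 0.52 (adjusted p = 0.0222), and with quantile normalization it was -0.05. Krt15, the basal and bulge keratin, stood at 2589, 2289.7 and 2624 TPM and at 109, 4.75 and 33.4 TPM. No values overlapped, and the log2 fold change was -6.48 (SE 1.11, adjusted p = 0.00162). It was -5.34 without mouse ID_1537 (adjusted p = 0.00803).

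Part of the sequence of Krt14 and Krt5 is shared with wound keratins, and reads from there can be assigned to either gene. Of the 1707 stretches of 50 bases in Krt14 transcripts (GENCODE M21), 13.9% also occurred in another gene, 188 of them in Krt16 and 55 in Krt17. For Krt5 the share was 8.52%, with 150 of 2148 stretches in Krt6a. It was 0.64% for Krt15 and 0 for Krt1, Krt10, Krt2, Krt77 and Krt79. How RSEM divided such reads was not tested. The bulge markers other than Krt15 moved with it, and 8 of 9 were called lower, beside 17.9% of all genes. Among them were Lhx2 (-4.08), Foxc1 (-2.50), Lgr5 (-2.45) and Sox9 (-1.94), transcription factors and the receptor Lgr5 of follicle stem cells. Their summed level was 410.1 to 433 TPM in syngeneic IgG and 64.8 to 96.9 TPM in Scl-cGVHD IgG mice, with none at 0 in all mice of a group. Their part in the result for Krt15 was not tested.

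The suprabasal keratins did not move as a block. Krt1 stood at 1000.5, 1037 and 916 TPM in syngeneic IgG mice and at 6312, 144 and 2008 TPM in Scl-cGVHD IgG mice. Mice ID_1535 and ID_1538 lay above all syngeneic IgG mice and mouse ID_1537 below them, so no common direction was seen (log2 fold change 0.31, 95% interval -1.59 to 2.22, adjusted p = 0.808). Its partner Krt10 stood at 4047, 3548 and 4070.0 TPM and at 9896, 293 and 3065 TPM, again from far above to far below the controls (log2 fold change -0.90, 95% interval -2.65 to 0.84, adjusted p = 0.419). These calls turned on single mice. Without mouse ID_1537, Krt1 had a fold change of 1.86 (adjusted p = 0.0292) and Krt10 one of 0.50 (adjusted p = 0.474). Without mouse ID_1535, Krt10 had one of -2.03 (adjusted p = 0.0442) and Krt1 one of -0.87 (adjusted p = 0.431).

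Krt77 stood at 2009, 1694 and 2088 TPM in syngeneic IgG mice and at 468, 0.17 and 90.7 TPM in Scl-cGVHD IgG mice. All Scl-cGVHD IgG mice lay below all syngeneic IgG mice, as for 41.0% of all genes, and the fold change of -5.70 (SE 2.06) narrowly missed the threshold (adjusted p = 0.0539). It passed with quantile normalization (adjusted p = 0.0443) and with a filter of 5 TPM (adjusted p = 0.0463), and stood at -3.21 without mouse ID_1537 (adjusted p = 0.253) and at -7.54 without mouse ID_1535 (adjusted p = 0.0223). Krt2 stood at 1.54, 2.32 and 3.52 TPM in syngeneic IgG mice and at 0.17, 0 and 0.33 TPM in Scl-cGVHD IgG mice, where mouse ID_1537 is listed at 0. The groups did not overlap, but the level was near the bottom of the measured range and limma did not call it (-1.54, adjusted p = 0.369), except in a fit of the compared groups alone (adjusted p = 0.0102).

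Krt79, the follicle member, stood at 698, 863 and 703 TPM in syngeneic IgG mice and at 120.5, 1.5 and 35.3 TPM in Scl-cGVHD IgG mice. No values overlapped, and the log2 fold change was -5.08 (SE 1.22, adjusted p = 0.0091), or -3.50 without mouse ID_1537 (adjusted p = 0.0442). Markers of the upper follicle and of the attached gland were lower as well, beside 17.9% of all genes called lower. Of 5 upper follicle markers 3 were called lower, among them the stem cell regulators Lgr6 (-2.82) and Lrig1 (-2.32). The 5 markers summed to 279 to 329 TPM in syngeneic IgG and 152 to 236 TPM in Scl-cGVHD IgG mice. Of 9 sebaceous gland genes 6 were called lower, among them the wax synthase Awat2 (-6.02) and the fatty alcohol enzyme Far2 (-6.63), with 2194 to 2671 TPM and 244 to 1374 TPM summed. None of these markers was at 0 in all mice of a group, and their part in the result for Krt79 was not tested.

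Other tissue markers moved between these groups too, where 6.84% of all genes were called higher and 17.9% lower. Of 15 skeletal muscle genes 7 were called lower, with 22993 to 38376 TPM summed in syngeneic IgG and 7348 to 16422 TPM in Scl-cGVHD IgG mice. With their mean level as a covariate, Krt15 kept its call (-4.11, adjusted p = 0.0261), while Krt14 (1.25, adjusted p = 0.144) and Krt79 (-3.03, adjusted p = 0.168) lost theirs. The muscle sums of these groups did not overlap, so this fit cannot fully separate muscle level from group. Of 9 fibroblast genes 7 were called lower (6876 to 10868 TPM against 323 to 2652 TPM summed), and of 10 leukocyte genes 6 were called higher (136 to 155 TPM against 225 to 1481 TPM). The part of fibroblasts and leukocytes in the keratin results was not tested.

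The second comparison set Scl-cGVHD mice given 1 mg of the mAb against syngeneic mice given the mAb, and shares no mouse with the first. Krt14, Krt5 and Krt1 were higher and Krt15 was lower, so limma called 3 members higher (background 7.99%) and 1 lower (background 28.3%), where 36.3% of all genes were called. Krt14 stood at 1416, 1533.2, 1640.2, 1661 and 2336 TPM in the syngeneic mAb mice and at 4011, 4211, 6552, 5402 and 15729.6 TPM in the Scl-cGVHD 1 mg mice. The groups did not overlap (log2 fold change 1.88, SE 0.36, adjusted p = 0.00118). Krt5 stood at 2279, 2304, 2559, 2169 and 2730.3 TPM and at 3329.9, 3777, 3520.2, 3616 and 3871 TPM, without overlap, and had a fold change of 0.59 (SE 0.18, adjusted p = 0.0155). That call was lost with quantile normalization (0.33, adjusted p = 0.125) and relative to the general keratinocyte genes (0.18, adjusted p = 0.323). Krt15 stood at 2275, 2386, 2654, 1163 and 1575 TPM and at 437, 713, 133, 229 and 37.3 TPM, with each Scl-cGVHD mouse below each syngeneic mouse, as for 20.6% of genes (-3.22, SE 0.86, adjusted p = 0.00956).

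Among the suprabasal keratins, Krt1 stood at 927, 797, 1071, 294 and 700.4 TPM in the syngeneic mAb mice and at 3403, 3965, 4151, 5841 and 2864 TPM in the Scl-cGVHD 1 mg mice. All Scl-cGVHD mice lay above all syngeneic mice (2.50, SE 0.70, adjusted p = 0.012), and the call was lost without mice ID_1533 and ID_1534 (2.09, adjusted p = 0.0542). Krt10 stood at 4214, 3883, 4641, 1202 and 2444 TPM and at 8748, 9512, 5799, 8309 and 6006 TPM. It did not overlap either, as for 5.96% of all genes in this direction, but was not called (1.35, 95% interval -0.00 to 2.70, adjusted p = 0.104). It was called in a fit of the compared groups alone (adjusted p = 0.0109) and with the muscle genes as a covariate (1.83, adjusted p = 0.0116). Krt77 stood at 1926, 1833, 2185, 618 and 1298 TPM and at 1683, 2246, 598, 718 and 3 TPM, and mouse ID_1546 fell to the bottom of this range while mice ID_1542 and ID_1543 were level with the controls (-1.98, 95% interval -5.37 to 1.41, adjusted p = 0.332). Krt2 stood at 1.62, 1.01, 2.46, 2.84 and 6.96 TPM and at 2.34, 219.6, 3.4, 11.2 and 0.1 TPM, with mouse ID_1543 far above all others (1.26, adjusted p = 0.312). Krt79 stood at 747, 782, 779, 699 and 984 TPM and at 413, 479.8, 67.2, 89.6 and 46.1 TPM. The groups did not overlap, and its fold change of -2.48 (SE 0.94) lay at the threshold (adjusted p = 0.05004). It passed without mouse ID_1542 (adjusted p = 0.037) or mouse ID_1543 (adjusted p = 0.0289), with quantile normalization (adjusted p = 0.0447), with a filter of 5 TPM (adjusted p = 0.0437) and in 2 other alternatives. Among the syngeneic mAb mice, ID_1533 and ID_1534, those with high hair keratins, had the lowest Krt1, Krt10, Krt15 and Krt77, and their part in these results was not tested beyond leaving them out.

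**Figure D2:**
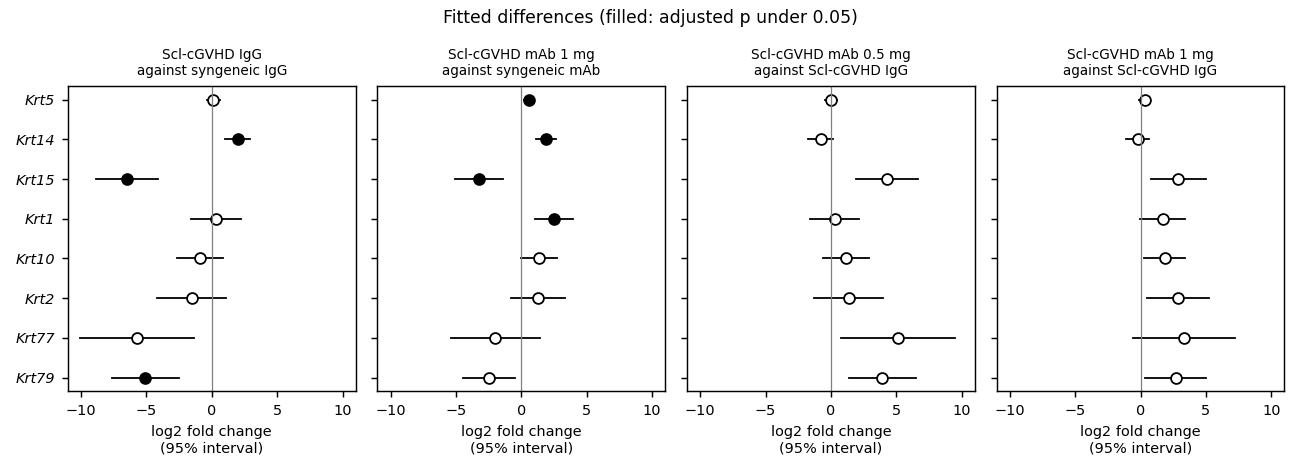
Fitted log2 fold change of each keratin with its 95% interval on the horizontal axis, in 4 comparisons, with filled points where the adjusted p was under 0.05. Krt14 is higher and Krt15 lower in both comparisons of Scl-cGVHD with syngeneic skin, and no point is filled in the comparisons of the mAb with IgG.

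The third comparison asked whether the mAb changed these keratins in Scl-cGVHD skin. limma called no member at either dose. At 0.5 mg it called 9 of all genes (0.0550%), and at 1 mg it called 0, with 2367 and 1674 genes at an unadjusted p under 0.05. At that unadjusted level stood 3 members at 0.5 mg (Krt15, Krt77 and Krt79) and 4 at 1 mg (Krt15, Krt10, Krt2 and Krt79), each with a higher mean than in IgG mice, beside 5.70% and 4.62% of all genes in this direction. Krt15 stood at 102, 1622 and 952 TPM in the 0.5 mg mice, so that mice ID_1540 and ID_1541 lay above the highest Scl-cGVHD IgG mouse (109.2 TPM) and mouse ID_1539 did not. The log2 fold change was 4.28 (95% interval 1.92 to 6.63, adjusted p = 0.119) at 0.5 mg and 2.88 (95% interval 0.78 to 4.99, adjusted p = 0.343) at 1 mg. Krt79 stood at 57.7, 826 and 815 TPM in the 0.5 mg mice, with the same mouse lowest (3.94, 95% interval 1.35 to 6.52, adjusted p = 0.169). At 1 mg its fold change was 2.67 (95% interval 0.36 to 4.98, adjusted p = 0.422). Krt77 stood at 358, 2485 and 2530.3 TPM in the 0.5 mg mice, with fold changes of 5.15 (0.78 to 9.52) at 0.5 mg and 3.31 (-0.60 to 7.22) at 1 mg.

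Krt14 stood at 8903, 2079.6 and 3929 TPM in the 0.5 mg mice, and its fold changes were -0.80 (95% interval -1.77 to 0.18) at 0.5 mg and -0.22 (-1.09 to 0.66) at 1 mg. Krt5 stood at 2622, 2796 and 3243 TPM in the 0.5 mg mice, with 0.00 (-0.48 to 0.48) and 0.33 (-0.10 to 0.76). Krt1 stood at 2647, 1029 and 1198 TPM and Krt10 at 4998, 4689 and 4379 TPM in the 0.5 mg mice, both within the range of the IgG mice, with fold changes of 0.28 (-1.63 to 2.18) and 1.18 (-0.57 to 2.92). At 1 mg their fold changes were 1.68 (-0.02 to 3.39) and 1.86 (0.30 to 3.42). Krt2 stood at 0.42, 2.84 and 3.73 TPM in the 0.5 mg mice, above all IgG mice, as 4.25% of genes were, but at a very low level. Its fold changes were 1.35 (-1.31 to 4.01) at 0.5 mg and 2.87 (0.49 to 5.25) at 1 mg. In all, 7 of the 8 fold changes lay above 0 at each dose, against the same IgG mice, with Krt14 the exception and Krt5 at 0.00 at 0.5 mg. Over all 16350 genes, 7985 lay above 0 at 0.5 mg and 7776 at 1 mg. No member was called. The members' median was 1.26 at 0.5 mg and 2.27 at 1 mg, beside a median within 0.1 of 0 for all genes. The direction was not particular to the members. Of 12 genes of epidermal differentiation, 7 lay above 0 at 0.5 mg (median 0.65) and 12 at 1 mg (median 1.01). Of the 12 general keratinocyte genes, 9 (median 0.28) and 11 (median 0.62) did. The results for the members turned on single Scl-cGVHD IgG mice. Without mouse ID_1535, limma called Krt15 (5.27, adjusted p = 0.0221) and Krt79 (5.16, adjusted p = 0.0295) at 0.5 mg and Krt1 (2.87, adjusted p = 0.0344) and Krt10 (2.99, adjusted p = 0.0169) at 1 mg. Without mouse ID_1537 the fold changes at 1 mg were 1.74 for Krt15, 1.10 for Krt79, 0.82 for Krt77, 0.14 for Krt1, 0.45 for Krt10 and -0.07 for Krt5, each with an adjusted p of 1. At 0.5 mg they were 3.14 for Krt15 (adjusted p = 0.506), 2.36 for Krt79 (adjusted p = 0.63) and 2.66 for Krt77 (adjusted p = 0.802), and those of Krt5 (-0.40), Krt1 (-1.26) and Krt10 (-0.23) turned negative. Without 0.5 mg mouse ID_1539, Krt15 (5.48, adjusted p = 0.027) and Krt79 (5.21, adjusted p = 0.0465) were called at 0.5 mg. Because both doses share these IgG mice, they are not independent of each other.

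Between the doses limma called no member and 0 genes in all (865 at an unadjusted p under 0.05). Krt5, Krt1 and Krt10 were higher in each 1 mg mouse than in each 0.5 mg mouse, as 1.89% of genes were, with log2 fold changes of 0.33, 1.40 and 0.68. In syngeneic mice the mAb gave no call among the members or over all genes (115 genes at an unadjusted p under 0.05), and the members' fold changes lay between -0.50 (Krt1) and 0.08 (Krt79). The response to 1 mg in Scl-cGVHD mice less the response in syngeneic mice was 3.26 for Krt15 (95% interval 0.28 to 6.24) and 2.26 for Krt10 (0.04 to 4.47), both at an unadjusted p under 0.05 and neither past the adjusted threshold. Without mouse ID_1537 they were 2.12 and 0.85. limma called 0 genes there (582 at an unadjusted p under 0.05, and 1.95% of all genes in this direction), and the doses of the 2 arms may differ.

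Ratios of 2 keratins within a mouse do not depend on how its library was scaled. The balance of the basal pair differed between these mice, though no test passed after adjustment. Krt5/Krt14 was 1.49, 1.46 and 1.36 in syngeneic IgG mice and 0.509, 0.288 and 0.426 in Scl-cGVHD IgG mice. It was above 1 in all 8 syngeneic mice and below 1 in all Scl-cGVHD mice except mouse ID_1540, where it was 1.34. Reads shared with Krt16, Krt17 and Krt6a can enter this ratio, and their part was not tested. With 3 mice a group an exact permutation test cannot go below p = 0.1, which it reached (two-sided). For the 1 mg mice against the syngeneic mAb mice it gave p = 0.00794, the smallest possible, and an exact p of 0.0536 after adjustment over the 27 ratio tests. Krt1/Krt10, the suprabasal pair, was 0.247, 0.292 and 0.225 in syngeneic IgG mice and 0.638, 0.49 and 0.655 in Scl-cGVHD IgG mice. All 3 Scl-cGVHD IgG mice lay above the controls, mouse ID_1537 included, although its Krt1 and Krt10 themselves were low. The ratio was 0.389 to 0.716 in 1 mg mice and 0.205 to 0.287 in syngeneic mAb mice (same exact p of 0.00794, adjusted p = 0.0536). Mice ID_1540 and ID_1541, at 0.219 and 0.274, stayed within the syngeneic range.

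Set against Krt14, Krt15 and Krt79 stood lower still. Krt15/Krt14 was 1.55, 1.28 and 1.27 in syngeneic IgG mice and 0.0144, 0.000824 and 0.00384 in Scl-cGVHD IgG mice. It was 0.0114, 0.78 and 0.242 in the 0.5 mg mice and 0.00237 to 0.169 in the 1 mg mice. Krt79/Krt14 was 0.339 to 0.482 in syngeneic IgG, 0.00026 to 0.0158 in Scl-cGVHD IgG and 0.00293 to 0.114 in 1 mg mice. Both ratios gave the smallest possible exact p of 0.00794 for 1 mg against syngeneic mAb (adjusted p = 0.0536). That outcome was fixed by the single genes, since Krt14 was higher and Krt15 and Krt79 lower there without overlap. These ratio tests therefore add no further support. Krt10/Krt14, suprabasal over basal, was 2.42, 1.98 and 1.96 in syngeneic IgG and 1.3, 0.0508 and 0.353 in Scl-cGVHD IgG mice, with all of the latter lower (exact p = 0.1). No ratio passed the adjusted threshold in any comparison, and for the mAb against IgG the smallest exact p after adjustment was 0.289. Krt2/Krt1 could not be formed in Scl-cGVHD IgG mice, where 1 mouse had Krt2 at 0.

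**Figure D3:**
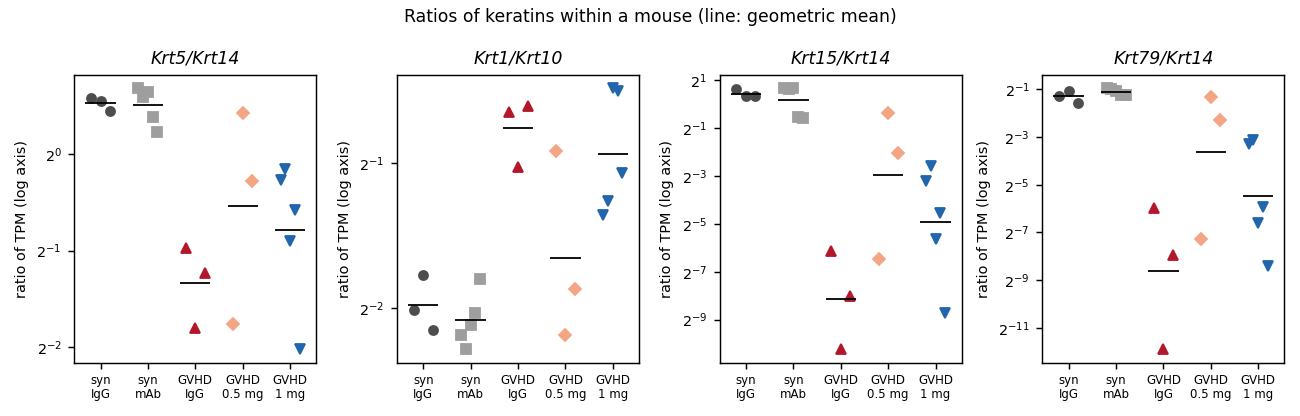
Ratios of TPM within each mouse on a log axis (base 2), with 1 panel per ratio, points for mice and lines for geometric means. Krt5/Krt14 lies above 1 in all 8 syngeneic mice, and Krt1/Krt10 of the 3 Scl-cGVHD IgG mice lies above that of all syngeneic mice.

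Of the 4 wound keratins 3 were called higher, from low levels in syngeneic skin, beside 6.84% of all genes. In Scl-cGVHD IgG against syngeneic IgG, limma called Krt6b (7.97, adjusted p = 0.00156), Krt16 (7.35, adjusted p = 0.00163) and Krt6a (4.52, adjusted p = 0.00575) higher, and Krt17 was not called (0.52, adjusted p = 0.472). Krt17 already stood at 836 to 2327 TPM in syngeneic mice, highest in ID_1533 and ID_1534, and was kept in the mean used below. Krt6a and Krt6b are close copies, and reads may be split between them. By mean TPM, Krt16 went from 22 ± 8.43 to 3689 ± 975, and in each Scl-cGVHD IgG mouse it stood above Krt5. Mouse ID_1540 (0.5 mg) lay within the syngeneic range for Krt16 (40.7 TPM), Krt6b (14.9 TPM) and Krt6a (117.6 TPM) and below it for Krt17 (708 TPM, against a syngeneic minimum of 836 TPM), and it was also the Scl-cGVHD mouse with the highest Krt15 and Krt79. After the data were seen, the mean log2(TPM + 1) of the 4 wound keratins was set against each member across the 11 Scl-cGVHD mice, with permutation p-values adjusted over the 8 members. Krt14 rose with it (Pearson's r = 0.89, permutation p = 2e-05, adjusted p = 0.00016; Spearman's rho = 0.918, p = 0.00026, adjusted p = 0.00208; n = 11). The relation held without the 2 mice farthest from the median (r = 0.936) and with values centred on the treatment group (r = 0.868). For all members, mice were permuted across treatment groups, and no p-value was computed for centred values. Reads shared with Krt16 and Krt17 may enter this relation for Krt14, and whether they do was not tested.

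Krt15 fell with the wound keratins by rank (rho = -0.764, permutation p = 0.0086, adjusted p = 0.0197; r = -0.689, p = 0.0182, adjusted p = 0.0728; n = 11). Krt79 (rho = -0.773, permutation p = 0.00744; r = -0.601, p = 0.0628) and Krt77 (rho = -0.755, permutation p = 0.00984; r = -0.507, p = 0.111) did likewise, both with an adjusted p of 0.0197 for rho, and neither passed for r (adjusted p = 0.167 and 0.222). Without the 2 farthest mice r was -0.541 for Krt15, -0.450 for Krt79 and -0.478 for Krt77. With values centred on the treatment group it was -0.653, -0.511 and -0.383. Krt5 (r = 0.16, permutation p = 0.596; rho = 0.409, p = 0.214), Krt1 (r = 0.234, p = 0.425; rho = 0.255, p = 0.453), Krt10 (r = -0.0567, p = 0.841; rho = -0.0545, p = 0.883) and Krt2 (r = -0.416, p = 0.149; rho = -0.509, p = 0.114) showed no relation that passed the test across these 11 mice.

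**Figure D4:**
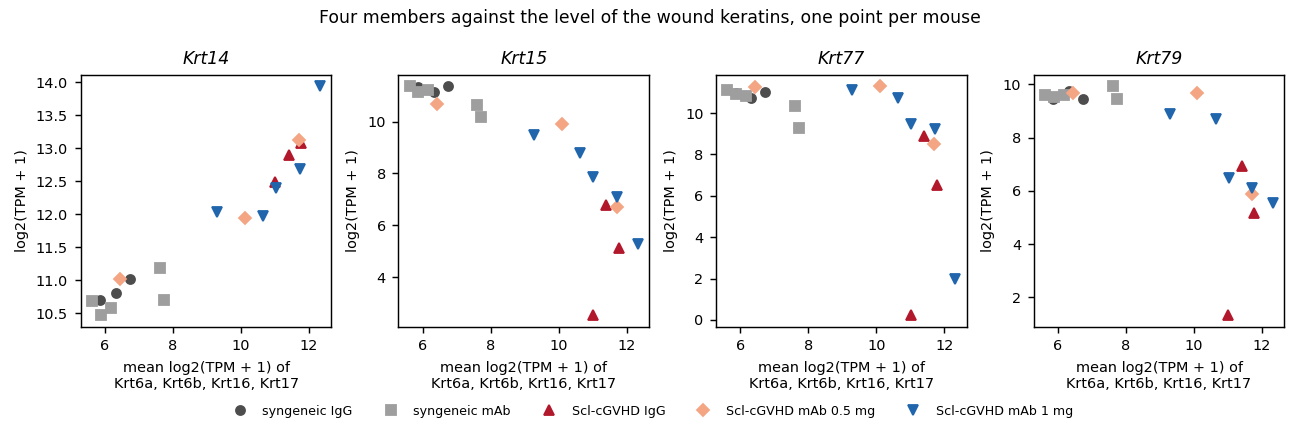
Level of 4 keratins as log2(TPM + 1) against the mean log2(TPM + 1) of Krt6a, Krt6b, Krt16 and Krt17, with 1 point per mouse and the groups by colour and shape. Krt14 climbs with the wound keratins across the 11 Scl-cGVHD mice (r = 0.89), while Krt15, Krt77 and Krt79 drop, with mouse ID_1537 lowest in all 3.

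Across all 19 mice the members fell into sets that vary together, as a description of log2 levels that share the group differences. Krt15 and Krt79 were the closest pair (r = 0.97 over 19 mice and 0.97 over the 11 Scl-cGVHD mice), and Krt77 followed both (r = 0.87 with Krt15 and 0.88 with Krt79). Krt1 and Krt10 formed a second set (r = 0.89, and 0.93 in Scl-cGVHD mice), which Krt5 joined (r = 0.89 with Krt1 and 0.79 with Krt10). Krt14 stood opposite to Krt15 (r = -0.86) and was only loosely tied to its partner Krt5 (r = 0.57, and 0.21 in Scl-cGVHD mice). The sets thus cut across the layers: suprabasal Krt77 varied with the follicle and bulge keratins, and basal Krt5 with the suprabasal pair.

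The genes outside the list with the most similar pattern, by Pearson's r over the 19 mice, differed between these sets. For Krt15 they were Efs (0.99), an adaptor protein, Gata3 (0.98), a transcription factor of skin and T cells, and Lrig3 (0.98). For Krt79 they were Cbarp (0.98), Phldb3 (0.97) and the ephrin Efna3 (0.97), and for Krt77 they were Skint10 (0.99), of the Skint family of skin and thymus, Bbox1 (0.97), which completes carnitine synthesis, and Mgl2 (0.97), a lectin of macrophages and dendritic cells. Krt14 was nearest to Fam162a (0.98), Eno1b (0.97), a copy of the glycolytic enzyme Eno1 with which it can share reads, and Lce3e (0.97), of the late cornified envelope. Krt1 was nearest to Them5 (0.97), Mboat2 (0.95) and Lce1i (0.94), and Krt10 to Dkkl1 (0.97), Lce1l (0.96) and Hal (0.95), the histidine ammonia-lyase of the upper epidermis. Krt5 was nearest to Phgdh (0.93), the first enzyme of serine synthesis, Gltp (0.90) and Gstm6 (0.86). Krt2 was nearest to Tmem45a2 (0.80), Jakmip2 (0.77) and Gapdhs (0.75), and 1 mouse holds most of its range.

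Genes that work with these keratins were called in both directions. Over all genes 24.7% were called, 6.84% higher and 17.9% lower. The counts of these lists are to be read beside those shares, which several of them lie near. Of 12 genes that anchor basal cells to the basement membrane, 3 were higher in Scl-cGVHD IgG than in syngeneic IgG mice and 1 was lower, with a median log2 fold change of 0.14 beside -0.33 for all genes. The laminin chain Lama3 (1.36, adjusted p = 0.0238) and the integrin Itga3 (1.42, adjusted p = 0.00394) rose, and Dst (-1.58, adjusted p = 0.0425), a linker of keratin to hemidesmosomes, fell. Of 16 regulators of keratinocyte fate, 2 rose, among them the transcription factor Cebpb (1.31), and 2 fell, Grhl1 (-0.90) and the Notch target Hes1 (-0.85), with a median of -0.21. Of 12 genes of epidermal differentiation 2 rose, Lypd3 (1.46) and filaggrin Flg (2.49). The 2 that fell were desmoglein Dsg1a (-1.82) and Flg2 (-3.14), and the median was -0.13. Of 12 general keratinocyte genes 1 rose (Sfn, 1.78) and 2 fell (Cldn1, -1.22, and Esrp1, -0.81), with a median of -0.15. The simple epithelial keratins Krt7, Krt8, Krt18 and Krt19 gave no call. Of 5 tested other epidermal keratins 3 fell: Krt75 (-5.08), Krt24 (-2.03) and Krt23 (-1.71), and Krt75 is a keratin of the follicle's companion layer.

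In the 1 mg mice against syngeneic mAb mice, 7.99% of all genes were called higher and 28.3% lower. The epidermal differentiation list had 6 of 12 genes higher and none lower, with a median of 0.79 beside -0.32 for all genes. Among them were Flg (3.49, adjusted p = 0.00139), Lypd3 (1.57, adjusted p = 0.000625) and loricrin Lor (1.46, adjusted p = 0.0494). Of the 12 general keratinocyte genes 4 rose and none fell, among them the desmosomal plakophilin Pkp1 (0.97, adjusted p = 0.000635) and plakoglobin Jup (0.82, adjusted p = 0.000973). Follicle lists stayed lower: 6 of 9 bulge markers, 3 of 5 upper follicle markers and all 9 sebaceous genes were called lower. Their summed levels in the 1 mg mice were 45.1 to 186, 187 to 261 and 211 to 518 TPM. In the syngeneic mAb mice they were 306 to 518, 312 to 599.7 and 1414 to 2762 TPM. No muscle gene was called in this comparison. Whether the 2 comparisons of Scl-cGVHD with syngeneic skin differ for these lists was not tested.

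The share of all transcripts taken by the 8 keratins shows the change of makeup in each mouse. It was 1.38% to 1.53% in syngeneic IgG, 0.781% to 1.55% in syngeneic mAb, 0.787% to 2.84% in Scl-cGVHD IgG, 1.55% to 1.97% in 0.5 mg and 2.08% to 2.86% in 1 mg mice. The 1 mg mice did not overlap with either syngeneic group. The basal members summed to 6697 to 7518 TPM in syngeneic IgG and 7427 to 12421 TPM in Scl-cGVHD IgG mice, and the suprabasal members to 6282 to 7077 TPM and 436 to 16676 TPM. In the 0.5 mg mice the suprabasal sum was 8004 to 8207 TPM, the narrowest of the 5 groups, though its parts differed: mouse ID_1539 had more Krt1 and less Krt77 than mice ID_1540 and ID_1541.

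**Figure D5:**
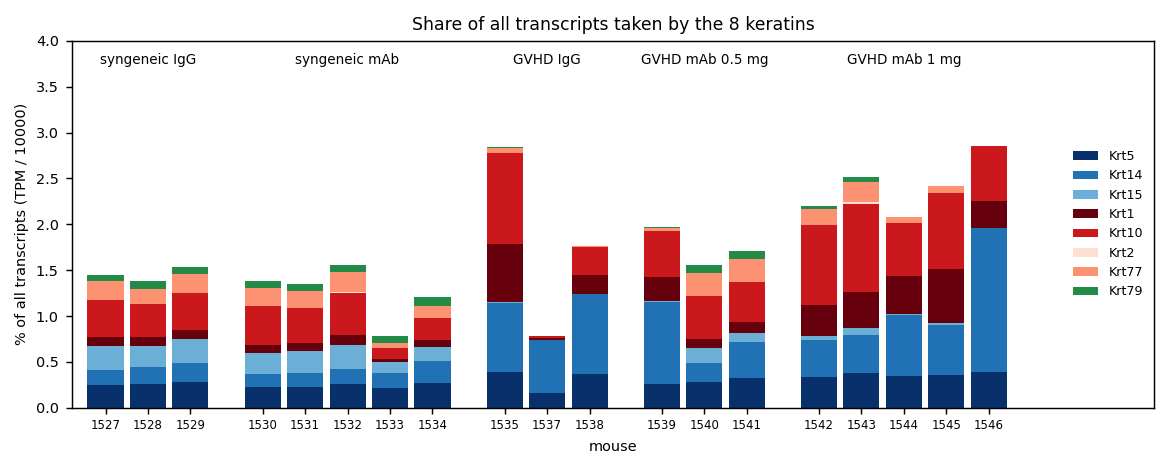
Share of all transcripts (percent) taken by each of the 8 keratins, as 1 stacked bar per mouse, with mouse numbers on the horizontal axis and groups written above. Krt15 and Krt79 are visible in all 8 syngeneic mice and nearly vanish in most Scl-cGVHD mice, where Krt14 takes a larger share.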

How the data were processed

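Skin RNA from 19 mice was sequenced (TruSeq stranded mRNA, paired reads). The authors trimmed reads with Trimmomatic, aligned them with STAR 2.5.2b to GRCm38 (Ensembl 88), estimated levels with RSEM 1.2.31 and deposited them as TPM, 1 column per mouse. TPM hides depth and depends on the makeup of each library. The alignment summary was not used, since its library names matched no single sample. Because the table holds TPM and not read counts, limma 3.58.1 (R 4.3.3, trend and robust) was used on log2(TPM + 1) of genes that reached 1 TPM in 3 or more mice, with all 5 groups in 1 fit and Benjamini-Hochberg adjustment over 16350 genes. Ratios within a mouse had exact two-sided permutation tests, adjusted over 27, and the wound keratin relation had 100000 permutations (scipy 1.17.1, Python 3.11.15). Members and gene lists were chosen with earlier results of these data known. Named were all 8 members, up to 4 genes of smallest p in Scl-cGVHD IgG against syngeneic IgG from each list, and the 3 genes of highest Pearson's r to each member. Further genes, such as Lor, Pkp1, Jup and called genes behind small counts, were named after their values were seen. Alternatives were other scalings, pseudocounts, filters, a stricter threshold, the compared groups alone, a muscle covariate, a keratinocyte reference and mice left out. The fit was tested on simulated data.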

Additional observations from a re-analysis of the deposited data

Results flagged for a closer look

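Of 16 groups of 5 mice tested for a single mouse far from the rest (8 members in the groups of 5), 4 were singled out. Chance alone singles out about 1 in 20 groups if values are normal and groups independent. The test used TPM, not log levels, and the members share the same mice, so the count cannot be set against that rate. Among the syngeneic mAb mice, ID_1534 stood above the others for Krt14 (2335.86 TPM) and for Krt79 (983.69 TPM). Among the Scl-cGVHD 1 mg mice, ID_1546 stood above the others for Krt14 (15729.58 TPM), and ID_1543 for Krt2 (219.62 TPM).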

How the results depend on the processing

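No paired analysis was possible because the labels give no replicate numbers shared between groups. In the comparison of Scl-cGVHD IgG with syngeneic IgG the calls for Krt15 kept their direction and stayed past the threshold under every alternative run (-7.47 to -4.11), and those for Krt14 and Krt79 under all but the muscle covariate. Among these 16350 genes, 4043 were called, and 1391 at an adjusted p under 0.01, 930 with the muscle covariate and 1780 relative to the general keratinocyte genes. The share of calls that were higher went from 27.7% to 51.4%, 47.6% and 50.5% with median-ratio, quantile and trimmed-mean scaling, and from 22.0% to 50.5%, 47.5% and 49.2% for 1 mg against syngeneic mAb. There, 5942 genes were called, and 3066 at an adjusted p under 0.01 and 9870 relative to the keratinocyte genes. For 0.5 mg against Scl-cGVHD IgG, 9 genes were called, and 93, 43 and 48 under the same 3 scalings, 17 with no filter and 0 at an adjusted p under 0.01, with a pseudocount of 0.1, with the compared groups alone, with the muscle covariate and relative to the keratinocyte genes. For 1 mg against Scl-cGVHD IgG, none was called, and 2 with quantile scaling, 3 with no filter, 1 with the compared groups alone and 1482 relative to the keratinocyte genes. For both doses together, none was called, and 41, 40 and 38 under the 3 scalings, 3 with a pseudocount of 0.1, 8 with no filter, 1 with the compared groups alone and 16 relative to the keratinocyte genes. With no filter, 4 genes were called between the doses, 2 for the mAb in syngeneic mice and 3 for the difference of the responses. Without ID_1533 and ID_1534, 3 were called for the mAb in syngeneic mice. The cause of these shifts was not tested.

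Directions reversed only for members that were not called. With quantile scaling Krt5 had -0.0467 in Scl-cGVHD IgG. With the muscle covariate the values were 0.71 for Krt10 in Scl-cGVHD IgG, -0.13 for Krt5 and -0.60 for Krt1 at 0.5 mg, 0.0210 for Krt14 at 1 mg, 0.51 for Krt15, 0.21 for Krt10 and 1.10 for Krt77 with the mAb in syngeneic mice, and 0.41 for Krt14 in the difference of the responses. Relative to the keratinocyte genes they were -0.30 for Krt5 and -0.0223 for Krt1 at 0.5 mg, -0.30 for Krt5 at 1 mg and for both doses, -0.0807 for Krt2 and -0.0766 for Krt79 with the mAb in syngeneic mice, and -0.00534 for Krt5 in the difference. Without ID_1533 and ID_1534 they were 0.13 for Krt10, -0.35 for Krt2 and 0.0396 for Krt77 with the mAb in syngeneic mice, and 0.0488 for Krt14 in the difference. The correlation of Krt10 with the wound keratins was 0.0962 without the 2 farthest mice and 0.00636 with values centred on the group.

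With 1 mouse left out at a time, the genes called ranged over 2022 to 3799 for Scl-cGVHD IgG against syngeneic IgG (lowest without syngeneic IgG mouse ID_1527, and 2241 and 2264 without ID_1528 and ID_1537), 4637 to 6445 for 1 mg against syngeneic mAb, 0 to 816 at 0.5 mg (highest without ID_1535, and 226 without ID_1539), 0 to 667 at 1 mg and 0 to 1108 for both doses (both highest without ID_1535), 0 to 4 between the doses, 0 to 1 for the mAb in syngeneic mice and 0 to 1 for the difference of the responses. Fold changes that crossed 0 ranged over -0.0915 to 0.52 (Krt5), -0.87 to 1.86 (Krt1) and -2.03 to 0.50 (Krt10) in Scl-cGVHD IgG against syngeneic IgG, -0.40 to 0.21 (Krt5), -1.26 to 1.46 (Krt1) and -0.23 to 2.30 (Krt10) at 0.5 mg, -0.0653 to 0.55 (Krt5) at 1 mg, -0.23 to 0.38 (Krt5) and -0.56 to 2.16 (Krt1) for both doses, -0.22 to 0.29 (Krt2) and -0.000246 to 0.18 (Krt79) for the mAb in syngeneic mice and -0.43 to 0.0608 (Krt14) for the difference. The log2 ratios in syngeneic mAb less syngeneic IgG mice ranged over -0.0636 to 0.0519 (Krt5/Krt14) and -0.47 to 0.041 (Krt10/Krt14). For both doses together, Krt15 (4.57, adjusted p = 0.0163), Krt10 (2.65, adjusted p = 0.0173) and Krt79 (4.53, adjusted p = 0.0213) were called only without ID_1535. With 1 mouse out, groups of 3 keep 2 mice, and the fit then assumes the spread of the other groups.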
